A study of Capra hircus with 2 samples.

Results

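miR-335 is a microRNA encoded inside MEST, a gene that is imprinted in mammals and expressed from the paternal copy. Its names were found by number, as every known miRNA of the deposited table with the number of miR-335, whatever the species prefix, arm or end annotation. There were 2 such names among the 587 known names, bta-miR-335_R-1 and hsa-miR-335-3p, each listed in 1 entry. miR-335 was selected on the difference of its 5p name between the libraries compared here, so the levels and ratios below are a description and carry no test.

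Small RNA of the endometrium, the inner lining of the uterus, was sequenced from pregnant Xinong Saanen dairy goats aged 24 months. The pre-receptive group (P) was taken on gestational day 5 and the receptive group (R) on gestational day 15, and the study compared them to find miRNAs that differ as the lining becomes able to receive the embryo. For each group the study mixed RNA of several goats into pooled samples, sequenced more than once, and reported them as 1 library. The tables used here hold 1 value per name and group. In them the spread between animals cannot be seen and no difference has a replicate check. Values are the normalized expression of the deposited tables (NE), a signal proportional to reads; divided by the worth of 1 read they summed to 1888663 reads in R and 4036239 in P over 1208 known and candidate names.

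A miRNA is cut from a hairpin precursor, and either arm of the hairpin can be loaded into the silencing complex. The loaded strand pairs with messenger RNAs mainly through its seed, and paired messengers are repressed. MEST marks mesodermal tissue in the embryo, and miR-335 is best known from mesenchymal cells and from studies of tumour spread.

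Both mature sequences of miR-335 are shown because the values below belong to these strands. Capitals mark the seed, bases 2 to 8.
bta-miR-335_R-1 (5p arm): tCAAGAGCaataacgaaaaatg
hsa-miR-335-3p (3p arm): tTTTTCATtattgctcctgacc
bta-miR-335, database entry: tCAAGAGCaataacgaaaaatgt
The 5p strand was 22 nt long, 1 base shorter at its 3′ end than the 23 nt cattle entry it was matched to, and it carried the same seed. The 3p strand, also 22 nt, was identical to the human entry. No other end variant of either arm was listed.

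The seeds CAAGAGC and TTTTCAT would pair with the sites GCTCTTG and ATGAAAA in a messenger. Among the 1174 other distinct sequences known or predicted in the tables, 0 had either seed, and 0 shared 16 or even 12 bases in a row with either arm. No other listed name therefore counts among miR-335 by sequence. Adenine made up 12 of the 22 bases of the 5p strand, and thymine (uracil in the RNA) 11 of the 22 bases of the 3p strand. The GC content was 31.8% for the 5p strand and 36.4% for the 3p strand, beside a median of 45.5% over 554 distinct known sequences, of which 39 lay below the 5p strand and 104 below the 3p strand.

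The 5p arm, bta-miR-335_R-1, had 143.6 NE in R and 1430.4 NE in P. These are 167 reads in R (95% exact Poisson interval 142.6 to 194.3) and 1230 reads in P (1162 to 1301). The intervals cover counting error only, and P was the higher library. Relative to P, the log2 ratio of the 5p arm in R was -3.32 (exact interval of the 2 counts -3.56 to -3.08), a level 9.96-fold higher in P.

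The 3p arm, hsa-miR-335-3p, had 43.0 NE in R and 198.9 NE in P. These are 50 reads in R (37.1 to 65.9) and 171 reads in P (146.3 to 198.6). The 3p arm was thus also higher in P. Its log2 ratio was -2.21 (-2.69 to -1.75), a level 4.63-fold higher in P.

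**Figure D1:**
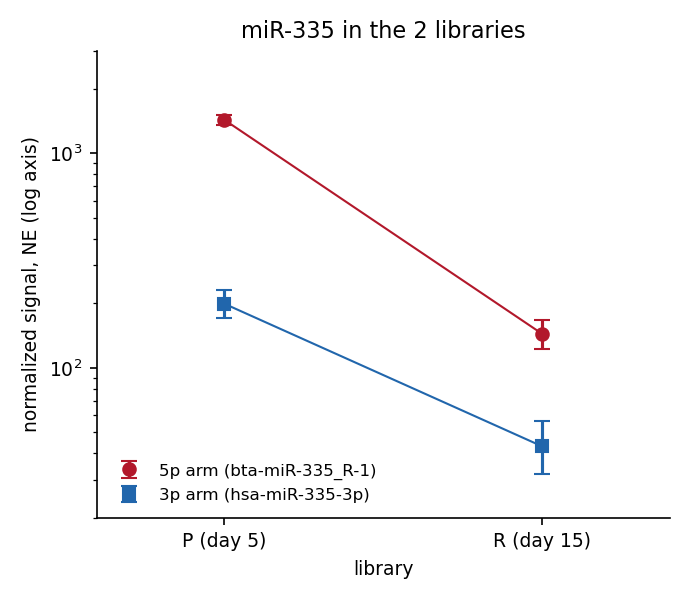
Normalized signal (NE, log axis) of the 5p arm (circles) and the 3p arm (squares) of miR-335 in the P library (day 5) and the R library (day 15), with 95% exact Poisson intervals for counting error. Both arms were higher in P, the 5p arm at 1430.4 against 143.6 NE and the 3p arm at 198.9 against 43.0 NE.

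In the order of the 587 known names by level, the 5p arm stood at place 61 in P and place 147 in R. Next above it in P was mmu-miR-99a-3p_R+2_1ss9TC with 1254 reads, within the counting interval of 1162 to 1301 reads, and next below was hsa-miR-145-3p_L-2R+1 with 1148 reads, just outside it. In R the neighbours were oar-miR-133_L+1 and hsa-miR-299-3p_1ss10TC, with 168.5 and 165 reads (NE divided by the worth of 1 read, which need not be whole), within the interval of the 5p arm. Among all 1208 names the 3p arm stood at place 132 in P and place 224 in R.

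Names were tested when NE was above 0 in both libraries and at least 1 in one of them, and 564 names met this, among them both arms of miR-335. Both arms were at least 2-fold lower in R, as were 102 of the 564 tested names (18.1%). Both were also at least 4-fold lower, as were 38 of the 564 (6.74%). Nothing is read from these shares, since this contrast chose miR-335. Over the tested names the log2 ratio had a median of -0.07, and 8 names had a lower ratio than the 5p arm and 20 a lower ratio than the 3p arm. Of these, 6 of the 8 and 11 of the 20 had at most 3 reads in R, so their ratios rest on very few reads.

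Set beside names of like level, the ratio of the 5p arm stood near the end of the range. Within 2-fold of its level in P there were 34 other tested names, with log2 ratios from -3.83 to 1.94 and a median of -0.25, and 1 of them, bta-miR-490_R+1, had a lower ratio. Within 2-fold of the 3p arm there were 62, with log2 ratios from -1.52 to 3.86 and a median of 0.11. None of these 62 had a lower ratio than the 3p arm.

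How far miR-335 was lower in R depended on how the libraries were put on 1 scale. The most abundant name, aja-miR-143_1ss22GT, alone made up 17.8% of the summed NE in R and 39.8% in P. Scaled to clean reads, the library totals given in the study, all log2 ratios moved up by 0.78, and the arms stood at -2.53 (5p, 5.79-fold higher in P) and -1.43 (3p, 2.69-fold). This is the scale that the methods of the study describe, which the deposited values do not follow. Scaled to all listed reads they moved up by 1.53, to -1.79 and -0.68, and the 3p arm was then less than 2-fold lower in R. Both arms stayed lower in R under all 4 scalings tried, and their distance to the median of the tested names does not change with the scaling.

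**Figure D2:**
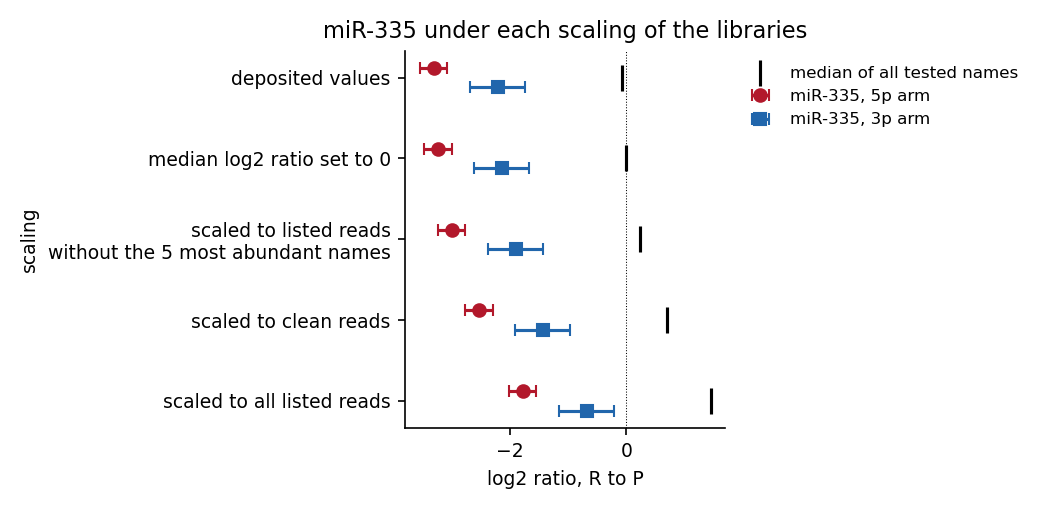
log2 ratio of R to P of the 5p arm (circles) and the 3p arm (squares) of miR-335 under the deposited values and 4 other scalings, with 95% exact intervals for counting error, and the median of the 564 tested names (black ticks). The 5p arm lay between -3.32 and -1.79 and the 3p arm between -2.21 and -0.68, and the median moved along with them from -0.07 to 1.46.

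The arms were not lower by the same factor. In R the 5p arm had 3.34 times the reads of the 3p arm, and in P 7.19 times. The 5p share of miR-335 reads was 77.0% in R (167 of 217 reads, 95% Wilson interval 70.9 to 82.1%) and 87.8% in P (1230 of 1401 reads, 86.0 to 89.4%). The 5p strand was the more abundant in both libraries, with a smaller share in R. Since miR-335 was chosen by the low level of this strand in R, the difference of the arms is a description too, and its intervals cover counting error only. On the log2 scale the 5p to 3p ratio was 1.74 in R and 2.85 in P, a difference of -1.11 (exact interval -1.63 to -0.56), which no scaling between the libraries can move.

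The same quantity was computed for the 98 hairpins that had both arms above 0 in both libraries, arms being paired by name. The 5p to 3p ratio was lower in R for 57 of them and higher for 41, with a median difference of -0.14 and quartiles of -0.86 and 0.64. miR-335 was in place 20 from the lowest, so 19 hairpins had a larger shift toward the 3p arm in R. Some of these shifts rest on very few reads. The 3p arm had 0.58 NE in P for miR-628 and 1.16 NE in P for miR-154b, the hairpins with the largest shifts. The change of arm ratio in miR-335 lay below the lower quartile of the hairpins but not at their end.

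**Figure D3:**
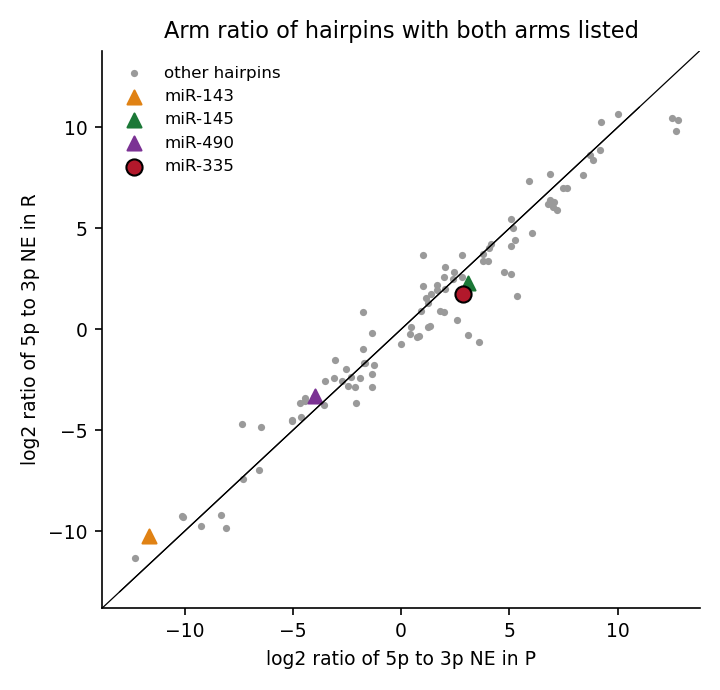
log2 ratio of 5p to 3p NE in P (x axis) and in R (y axis) for 98 hairpins with both arms listed; the line marks equal ratios. miR-335 lies below the line, at 2.85 in P and 1.74 in R, and miR-143, miR-145 and miR-490 are marked for comparison.

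The hairpins nearest to miR-335 by the level of both arms in P were miR-30e, miR-142, miR-424, miR-374a and let-7d. Their 5p to 3p ratio moved by -0.03 in miR-30e and -0.02 in miR-142, by -0.65 in miR-424 and -0.44 in let-7d, and by 1.09 in miR-374a. Hairpins of like abundance thus moved either way. In miR-30e both arms were lower in R (736 against 1149 NE for the 5p arm, 185 against 282 NE for the 3p arm), but higher in R when scaled to clean reads or to all listed reads. In miR-142, a miRNA of blood cells, both were higher (5689 against 2524 NE and 423 against 185 NE).

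Both arms were at least 2-fold lower in R for 4 of the 98 hairpins, miR-335, miR-143, miR-145 and miR-490. miR-143 and miR-145 are made together in smooth muscle and other contractile cells, and miR-490 is known from smooth muscle. The 3p arm of miR-490, bta-miR-490_R+1, had 103.2 NE in R and 1465 NE in P, and its 5p arm 10.3 and 93.04 NE. The abundant arm of miR-143 had 289634 NE in R and 1866274 NE in P, and that of miR-145 2123 and 11339 NE. Scaled to clean reads, miR-335 and miR-490 alone kept both arms at least 2-fold lower, and scaled to all listed reads miR-490 alone did, while the 5p arm of miR-143 became higher in R.

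The names with the level pattern nearest to the 5p arm, by Euclidean distance of log2 NE over the 2 libraries among 535 other tested sequences, were led by bta-miR-490_R+1 at a distance of 0.48. It was followed by oar-miR-133_L+1 (1.31), a miRNA of striated muscle, and then by hsa-miR-143-5p_1ss22TA, hsa-miR-145-3p_L-2R+1 (1.60) and hsa-miR-100-5p (1.66). Being nearest to values that chose miR-335, they are given as a description. oar-miR-133_L+1 had 144.9 NE in R, almost the level of the 5p arm, and 3558 NE in P, a larger difference.

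Nearest to the 3p arm were oar-miR-412-3p_R-3 (0.78), hsa-miR-499a-5p (0.83), oar-miR-382-3p (0.91), bta-mir-2285m-3-p5_1ss1AG (0.94) and oar-miR-26a_R+1_1ss4AN (0.95). miR-412 and miR-382 belong to the imprinted DLK1-DIO3 cluster, and miR-499a lies in a myosin gene of striated muscle. All 5 were lower in R, with log2 ratios from -1.37 to -0.89, closer to 0 than the -2.21 of the 3p arm, and all 5 were higher in R when scaled to all listed reads. The 3p arm thus had no tested name nearer than a distance of 0.78.

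**Figure D4:**
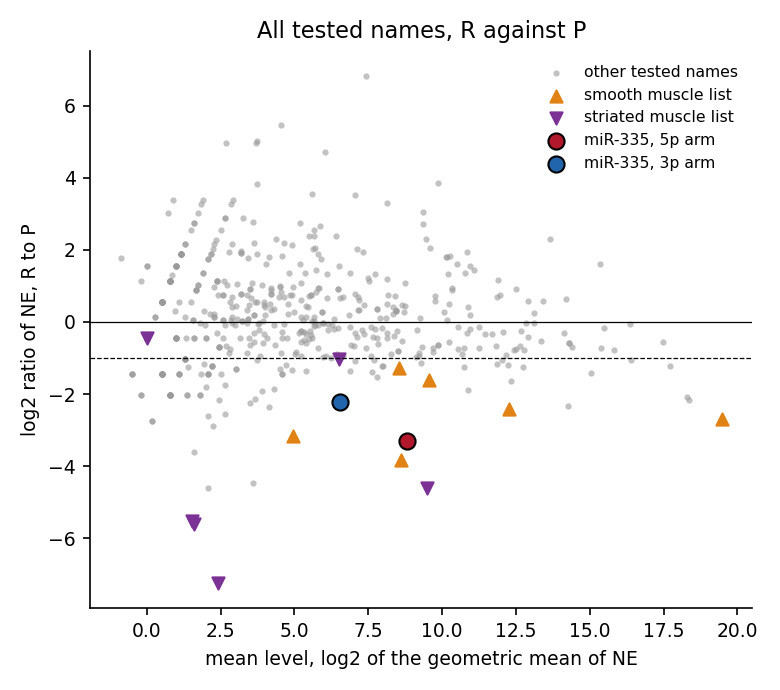
log2 ratio of NE, R to P, against the mean level (log2 of the geometric mean of NE) for 564 tested names; the dashed line marks 2-fold lower in R. The arms of miR-335 lie at -3.32 and -2.21, among the names of the smooth muscle list (triangles) and the striated muscle list (inverted triangles).

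The lists of miRNAs known from a cell type or locus give the setting of miR-335 in this tissue. All 6 tested names of the smooth muscle list were at least 2-fold lower in R, beside 18.1% of all tested names, with a median log2 ratio of -2.55, and 4 of them were as low as the 3p arm of miR-335 or lower. The list summed to 292542 NE in R and 1881083 NE in P, nearly all of it aja-miR-143_1ss22GT, and its 3 numbers were all listed. These are miR-143, miR-145 and miR-490, the hairpins named above because both their arms were at least 2-fold lower in R. The count of 6 therefore repeats that observation, and nothing further is read from it. Scaled to all listed reads, 3 of the 6 were at least 2-fold lower and 5 were lower, beside 2.84% and 7.98% of all tested names.

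The striated muscle list had 5 of 6 tested names at least 2-fold lower in R, again beside 18.1% of all. These 5 are not all separate miRNAs. oar-miR-133_L+1, its end variant oar-miR-133_L+1R-2 and hsa-miR-133a-5p, of the other arm, all belong to miR-133. Over the 6 tested names the median was -5.07. This median rests on few reads, since 3 of the 6 had less than 1 read in R. With these 3 set to 3 reads in R, and 1 name with at most 3 reads in each library left out, the median was -3.02. The list summed to 211 NE in R and 3796 NE in P, and oar-miR-133_L+1 was its most abundant name. miR-1, best known from striated muscle, was listed as hsa-miR-1_1ss1TC, a form with C for T at its first base. This form had 0.430 NE in R, less than 1 read, and 20.9 NE in P. Of the 9 numbers of this list, miR-133b, miR-206 and miR-208b had no name in the table used here, and miR-499 was listed as miR-499a. Scaled to all listed reads, 4 of the 6 were lower, all 4 at least 2-fold, and both miR-499a names were higher in R, 1 of them at least 2-fold, beside 7.98% of all tested names lower and 2.84% at least 2-fold lower. Scaled to clean reads, 5 of the 6 were lower, beside 22.3% of all tested names. On the deposited scale all 12 tested names of the muscle lists were lower in R, as were 52.3% of all tested names. The smooth muscle names among them repeat the hairpins named above, and the lists were chosen with earlier results of these data known. Nothing is therefore read from this count, and the part of muscle cells in the result was not tested. In a sample of whole tissue, fewer cells of a type and less RNA per cell cannot be told apart.

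The epithelium list went the other way. All 13 tested names were higher in R, 12 of them at least 2-fold, as were 129 of the 564 tested names (22.9%), with a median of 3.04, and the sum was 38573 NE in R and 6977 NE in P. Its most abundant name, hsa-miR-141-3p_R-1, had 28337 NE in R and 5791 NE in P. Of its 11 numbers 10 had a name, miR-200b being the exception, and miR-205 rested on 3 reads in R and 1 read in P. Other names were also low in P, among them hsa-miR-141-5p_1ss11TC (1.16 NE), and bta-miR-183_L-1 and oan-miR-429-3p_R+2 (3.49 NE each). Values of at most 3 reads were then set to 3 reads, and 2 names with at most 3 reads in each library were left out. The median remained 3.04. All 5 tested names of the ciliated epithelium list were also higher in R, beside 47.7% of all tested names, and 3 of the 5 at least 2-fold, beside 22.9%. The list was led by hsa-miR-34c-5p (2778 against 1090 NE), with a median of 1.35 and a sum of 4872 NE in R and 1234 NE in P; miR-449c had no name. These directions held under every scaling, which moves all ratios further up. The part of these cells in the result was not tested.

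The fibroblast and mesenchyme list stands for the stroma of the endometrium. Of its 14 tested names, 7 were lower in R, beside 52.3% of all tested names, and 7 higher, 0 were at least 2-fold lower and 4 at least 2-fold higher (18.1% and 22.9% of all tested names), with a median of 0.27. The 4 were all names of miR-22 or miR-21, and none was of miR-199, miR-214 or miR-152. With 1 name of at most 3 reads in each library left out, the median was -0.02. Its sum was 170366 NE in R and 122158 NE in P. In this sum oar-miR-22-3p_R+1 had 72245 NE in R and 23823 NE in P. oar-miR-199a-3p, the most abundant, had 82015 NE in R and 84822 NE in P. None of the 14 tested names came near the ratios of miR-335 (lowest -0.84). Scaled to all listed reads, all 14 were higher in R, as were 92.0% of all tested names. Whether these names follow the stroma in this tissue was not tested, nor was the part of stromal cells in the result.

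Of the 14 tested names of the blood and vessel lists, 0 were at least 2-fold lower in R, beside 18.1% of all tested names. White blood cells had 4 tested names, 2 of them at least 2-fold higher in R (22.9% of all), with a median of 0.70 (7811 NE in R, 5218 NE in P, led by cgr-miR-142-5p_L-2R+1), and miR-150 and miR-146b had no name. Red blood cells had 6 with a median of -0.16 (6107 and 9425 NE, led by cgr-miR-486-5p; miR-451a was listed under its older name miR-451), and the endothelium list, miR-126, had 4 with a median of 0.52 (32841 and 21287 NE, led by hsa-miR-126-5p). The red cell median is above 0 when scaled to clean reads. With 1 name of at most 3 reads in each library left out, it was -0.68 on the deposited scale. Each arm of miR-144 stood in the red cell list under 2 names with equal values.

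miR-335 was also set beside other miRNAs of imprinted loci and of host genes. The DLK1-DIO3 locus, a large imprinted cluster of miRNAs, had 41 tested names, of which 7 were at least 2-fold lower (17.1%, beside 18.1% of all tested names) and 5 at least 2-fold higher in R (12.2%, beside 22.9%). Its median was -0.07, the same as over all tested names, its lowest ratio was -2.24, and its sum was 3288 NE in R and 4532 NE in P, led by oar-miR-369-3p (644 and 1070 NE). Of its 62 numbers, 31 had a name in the table. The 4 miRNAs listed for other imprinted hosts (miR-483, miR-675, miR-296 and miR-298) had none. Of the 41 names, 1 was as low as the 3p arm of miR-335 and 0 were as low as the 5p arm. The median of the locus became 0.71 scaled to clean reads and 1.46 scaled to all listed reads, again the same as over all tested names, and 28 of the 41 were at least 2-fold higher in R in the latter case (68.3%, beside 72.0% of all tested names).

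Of miRNAs inside introns of other protein-coding genes, 27 names were tested. At least 2-fold lower in R were 6 (22.2%, beside 18.1% of all tested names) and at least 2-fold higher 5 (18.5%, beside 22.9%), and the median was -0.44, which became 0.35 when scaled to clean reads. The most abundant, oar-miR-26a, had values of 142847 NE (R) and 330582 NE (P). The list summed to 223467 NE in R and 483842 NE in P, and miR-107, miR-93, miR-25 and miR-33b had no name. The lowest ratio of this list was -1.88, closer to 0 than that of either arm of miR-335.

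**Figure D5:**
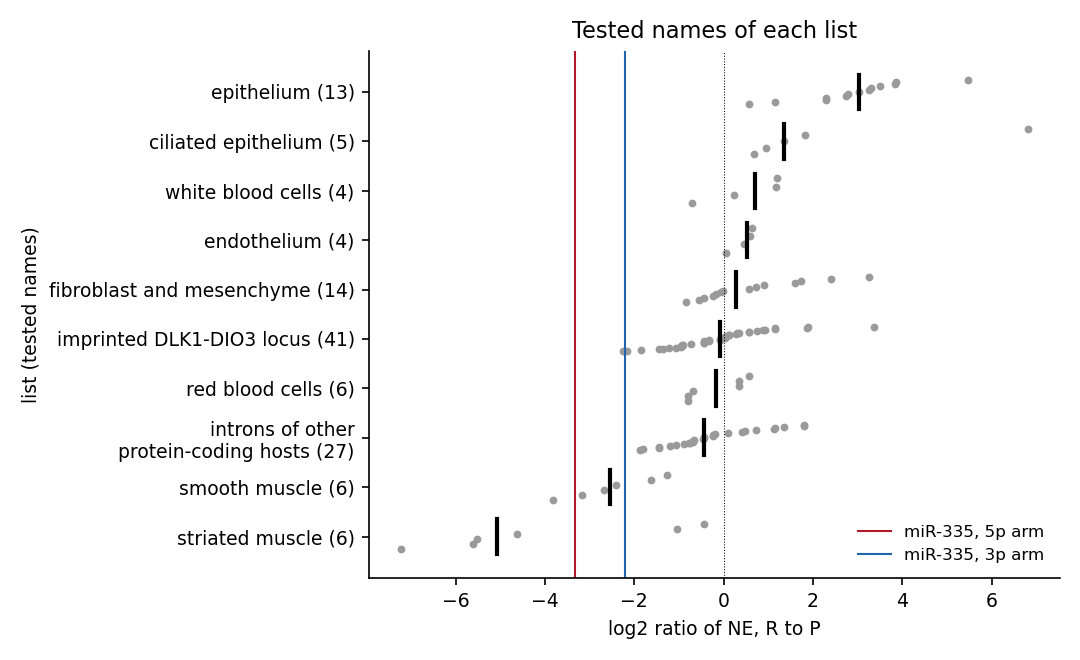
log2 ratio of NE, R to P, of the tested names of each list (points; number of tested names in brackets) with the median of the list (black bar), and both arms of miR-335 (vertical lines at -3.32 and -2.21). In each muscle list 4 of 6 names are as low as the 3p arm or lower, with list medians of -2.55 and -5.07, and the epithelium list lies to the right, with a median of 3.04.

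The predicted targets in the deposited table are identifiers of goat messenger sequences, given for both arms of miR-335 and 140 other miRNA names. The 5p arm had 765 targets and the 3p arm 935, places 43 and 29 from the longest of these lists, whose median length was 578.5. Both arms are therefore among the miRNAs with longer lists. The identifiers are given there without gene names, and 0 of 7608 matched the gene table used here, so no target is named.

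The arms shared 170 targets, 22.2% of the list of the 5p arm and 18.2% of that of the 3p arm. The 140 other miRNAs shared a median of 17.0% of their own lists with the 5p arm and 24.3% with the 3p arm, so the arms of miR-335 overlapped each other about as much as other lists overlapped them. Together the arms reached 1530 identifiers, 20.1% of all 7608. Of these, 19 were predicted for no miRNA other than miR-335. The median identifier was predicted for 8 of these miRNAs, the median target of the 5p arm for 19 and that of the 3p arm for 21. Sequences with many predicted miRNAs stand on more lists, and over the 140 other lists the same value ran from 10 to 28 with a median of 19, so the targets of miR-335 were near the middle in this respect for the 5p arm and exceeded by 13 lists for the 3p arm.

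The miRNAs that shared the largest part of their own lists with the 5p arm were PC-5p-108241_6 (21.8%), PC-5p-60249_14 (21.8%), mmu-miR-3963_R+2_1ss1TC (21.4%), hsa-miR-499a-5p (21%) and bta-mir-2285o-3-p5_1ss12TC (20.7%). For the 3p arm they were bta-mir-2285o-3-p5_1ss12TC (38.4%), cgr-miR-32-3p (36.2%), hsa-miR-153-5p_L+1_2ss15G-16TC (34.8%), mdo-miR-599-5p_R-2_1ss9TG (34.2%) and hsa-miR-374a-3p_R-1_1ss9AG (33.2%). Among these, hsa-miR-499a-5p and hsa-miR-374a-3p_R-1_1ss9AG were lower in R as miR-335 was, with log2 ratios of -1.03 and -1.22, but higher in R when scaled to all listed reads. mdo-miR-599-5p_R-2_1ss9TG, with 0.860 NE (1 read) in R and 20.9 NE in P, was lower in R under every scaling. The other 6 were at least 2-fold higher in R, with log2 ratios from 1.96 to 2.56, as were 109 of the 140 other miRNAs in the target table (77.9%), and 5 of the 6 had at most 4 reads in P.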

How the data were processed

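Small RNA of goat endometrium was compared between 1 receptive (R) and 1 pre-receptive (P) library. Reads were filtered and matched to precursors of miRBase 20.0 and to a goat genome by the authors, who deposited a normalized signal (NE) per name and library; the values equal reads multiplied by 1 factor per library, 0.860 NE per read in R and 1.16 in P, and do not follow the scaling to clean reads that the methods state. Of the values above 0, 87.6% in R and 87.1% in P were whole reads (tolerance 0.001), among them all 4 values of miR-335. No count test was therefore run across names, and intervals were computed only for miR-335. Reads of other names (sums, neighbours in the order of levels, the filter of 10 reads and the floor of 3 reads) are NE divided by the worth of 1 read and need not be whole. The authors also deposited predicted targets (TargetScan 5.0 and miRanda 3.3a, both required) for part of the names. In the candidate table the column labels are exchanged; all 70 names shared with the table of differential expression had equal values (within 0.006, that table being rounded) once they were switched. Fold changes and P-values computed by the authors were not used.

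Repeated names were counted once, with NE as listed. Intervals are 95% exact (Poisson, Clopper-Pearson, conditional odds ratio) or Wilson. A difference was described as 2-fold at a log2 ratio of -1 or less. Arms were paired by the number in the name; a name without an arm was taken as the arm its number lacked. Named are the miR-335 names, names sharing a seed or 16 bases in a row with them, and the 5 nearest names to each arm. Also named are the 4 most abundant names of each list, of which the text gives a part, and the 5 nearest hairpins. The 5 names with the largest share of targets in common are given too. Further names are neighbours in the order of levels, which were picked with the values in view. Others are hairpins with both arms at least 2-fold lower in R, miRNAs of nearby genes, and list numbers with few reads or no name. The members and lists were chosen with earlier results of these data known. The gene order is that of RefSeq assembly ARS1.2, used for names only. The ratio, its interval and the pairing were tested on simulated data. Values were computed with scipy 1.17.1, pandas 2.3.3 and numpy 2.4.6 in Python 3.11.15, duplexes with ViennaRNA 2.7.2 and figures with matplotlib 3.10.9.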

Additional observations from a re-analysis of the deposited data

How the results depend on the processing

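The scaling between the libraries moved the ratios most. The 5p arm of miR-335 was at -2.53 scaled to clean reads, -1.79 scaled to all listed reads and -3.01 scaled to listed reads without the 5 most abundant names, against -3.32. The 3p arm was at -1.43 and -0.68 for the first and second of these, against -2.21. Names at least 2-fold lower in R numbered 42 scaled to clean reads and 16 scaled to all listed reads, against 102, and 55 with at least 10 reads in one library, where 361 names were tested. Names at least 4-fold lower numbered 11, 8, 25 (median set to 0) and 19 (without the 5 most abundant) against 38; these were added after seeing the data. With at least 10 reads of each arm in each library, 31 of 52 hairpins had a lower 5p to 3p ratio in R, against 57 of 98, with fewer hairpins tested. No sign of a miR-335 value turned. A pseudocount of 1, recovered reads, the other filters and ways of counting, and arms paired by names that state both (added after seeing the data) moved the values by less than counting error or counts by less than 1.5 times. The Fisher test across names was not run, since reads were not whole for all names; pairing by precursor was not run, since the table used here has no precursor column; counting transcript identifiers was not run, since they are not paired with the miRNA names. No paired analysis was possible because each group has 1 library. Depth limits the 3p arm most, with 50 reads in R.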

Other observations

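In the RefSeq annotation of goat assembly ARS1.2 the miR-335 gene lies inside MEST, between the protein-coding genes COPG2 and CEP41. It is 1 of 11 annotated miRNA genes on its chromosome. The nearest annotated miRNA gene before it is that of miR-29a, followed by miR-490, and the nearest after it are those of miR-183, miR-96 and miR-182, a cluster known from epithelium. Their levels went different ways. The most abundant name of miR-29a had 13427 NE in R and 9021 NE in P. bta-miR-183_L-1 had 153.9 NE in R and 3.49 NE (3 reads) in P, bta-miR-96 31.8 and 4.65 NE, and bta-miR-182 3519 and 242 NE. bta-miR-592_L-1, of the next gene on that side, had 121 NE in R and 316 NE in P. On the other side, the gene beyond miR-490 is that of miR-671, led by hsa-miR-671-3p with 25.8 NE in R and 13.4 NE in P. miR-335 and, farther off, miR-490 and miR-592 were lower in R (miR-592 not when scaled to all listed reads). The miR-183 cluster and all names of miR-671 were higher in R under every scaling.

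The conservation table lists the mir-335 precursor for 11 of 23 species: cow, human, mouse, dog, pig, horse, chimpanzee, rat, gorilla, rhesus monkey and orangutan. The 658 precursor names of that table had a median of 2 species, and 35 names were listed for more species than mir-335. Sheep, the closest relative of the goat in the table, was not among its species.

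Paired with each other by RNAduplex, the arms of miR-335 formed 18 base pairs with a predicted energy of -18.3 kcal/mol. Over the 98 hairpins with both arms the medians were 17 pairs and -22.4 kcal/mol, and 20 hairpins had a weaker predicted duplex than miR-335.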
